A study of Mus musculus with 3 samples.

Results

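RET is a receptor tyrosine kinase that nociceptive and touch neurons of the dorsal root ganglia (clusters of sensory cell bodies along the spine) use to respond to ligands of the GDNF family. When RET is phosphorylated, its tail recruits adapter proteins, and these lead into the Ras-MAPK cascade, which controls transcription and differentiation, and into the PI3K-Akt-mTOR pathway, which controls survival and growth. Each step is encoded by several related genes, called paralogs. The levels of 55 genes of these steps, from the adapters to mTOR, are described here in sorted ganglion cells of the mouse embryo. The genes were taken from a fixed list of symbols, and all 55 were found among the 41388 genes measured.

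The cells were sorted for fluorescence from C57BL/6 embryos at embryonic day 14.5, from ganglia T11 to S1, and every pool carried the Ret-EGFP reporter, whose fluorescence marks cells in which Ret is active. In the series text EGFP was inserted into Ret and the embryos were heterozygous, whereas the genotype label, Tg(Ret-EGFP)SJ, has the form of a transgene. Whether all cells had 2 intact Ret alleles is therefore not known from the sources used here. RNA-seq was made from 3 pools, libraries A, B and D. A came from 100 ganglia of 5 embryos, B from 100 ganglia of 6 embryos and D from 80 ganglia of 4 embryos. Male and female embryos numbered 3 and 2 in A, 2 and 4 in B, and 3 and 1 in D. What this sex mix adds to differences between libraries was not tested. The libraries form 1 group, with no unsorted, EGFP-negative or mutant sample beside them. The comparisons are therefore between genes within a library and between the 3 libraries. The labels give separate pools of embryos, and the SD over 3 libraries covers biological and technical differences alike.

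Libraries A, B and D held 20181558, 20355302 and 29061086 counts. Levels are given as TPM, a share of all transcripts that divides a gene's reads by its length and lets genes be compared within a library. All 7 sensory neuron markers examined were at 1 TPM or more, and their summed level was 34471, 29842 and 29024 TPM in libraries A, B and D. Summed over 7 glial markers (7 at 1 TPM or more), it was 490.2, 785 and 879 TPM. Over 7 mesenchymal markers (5 at 1 TPM or more) it was 17.3, 67.7 and 18.4 TPM, and over 6 macrophage markers (3 at 1 TPM or more) 17.3, 11.2 and 7.01 TPM. For 6 erythroid markers (5 at 1 TPM or more) it was 84.8 in A, 74.8 in B and 304 TPM in D, and for 6 endothelial markers (1 at 1 TPM or more) it stayed between 3.92 and 4.86 TPM. Of the glial markers, S100b (237.1, 381.5 and 409.6 TPM) and Fabp7 (199.9, 313.4 and 417.8 TPM) were highest. Sox10, which defines glia, had 4.67, 11.1 and 6.86 TPM, and Cdh19 was lowest at 3.20, 1.58 and 0.993 TPM. Of the mesenchymal markers, Col1a2 had 5.06, 14.4 and 3.87 TPM and Col3a1 4.54, 13.8 and 2.09 TPM. Twist1 of mesenchyme had 0, 4 and 3 counts. Among the markers, 3 varied between libraries in edgeR's goodness-of-fit test described below: Col1a1 was highest in B (3.68, 28.4 and 2.32 TPM, adjusted p = 5.8e-05), and Hbb-bs (26.0, 28.5 and 115 TPM, adjusted p = 0.022) and Hbb-bt (26.1, 22.0 and 99.7 TPM, adjusted p = 0.027) were highest in D. What these cells add to the levels below was not tested. In a bulk sample, fewer cells that express a gene and less of its RNA per cell cannot be told apart. Ret itself, the gene of the gate, had 51.6, 72.0 and 56.0 TPM.

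Of the 55 listed genes, 53 had a mean of at least 1 TPM (96.4%), as did 41 of 50 further genes of the pathway and 55.3% of 21474 protein-coding genes. Both lists were chosen with earlier results of these data known, so these shares describe the lists and test nothing. The 5 genes above 100 TPM were Nras, Mapk3, Dok4, Dok5 and Araf, a further 24 lay between 10 and 100 TPM and 24 between 1 and 10 TPM. Only Dok6 and Spry1 averaged below 1 TPM. The median of the 55 was 14.0, 15.0 and 9.24 TPM, close to the median of the 11877 coding genes of at least 1 TPM (15.6, 15.3 and 10.8 TPM).

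**Figure D1:**
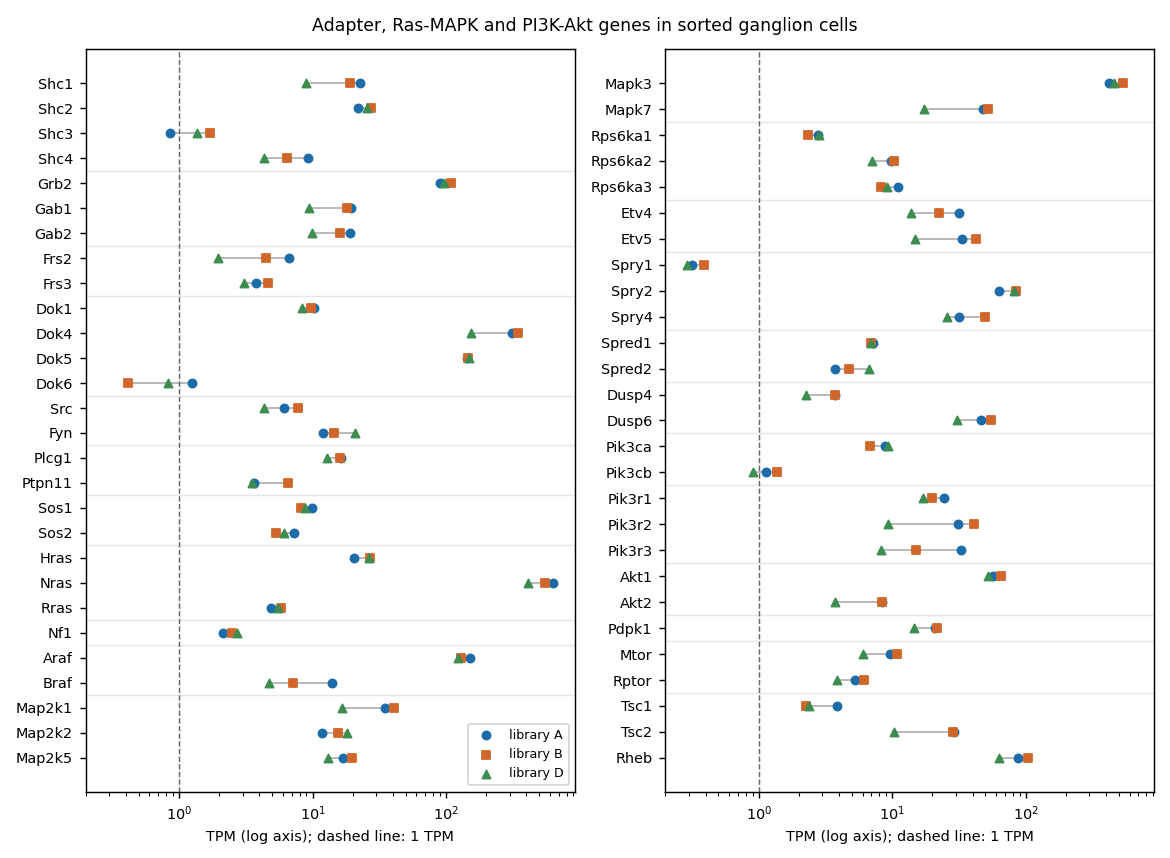
TPM (log axis) of the 55 genes in libraries A, B and D, ordered from adapters to mTOR, with grey lines between steps. In several steps 1 gene stands apart from its relatives, as Nras with 413 to 628 TPM does from Rras with 4.90 to 5.81 TPM.

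The adapters that bind phosphorylated receptors came first. Among the Shc genes, whose products link receptors to Grb2, Shc2 had 22.0, 27.3 and 25.7 TPM in A, B and D, and Shc1, the widely expressed member, had 22.5, 19.0 and 8.90 TPM. The pair was level in A and apart in D, so that log2 Shc2/Shc1 (0.67 ± 0.79, SD, n = 3) lay within the spread between libraries. Shc4 was lower at 9.29, 6.46 and 4.35 TPM. Shc3, the Shc protein known from mature neurons, was the lowest with 0.858, 1.72 and 1.36 TPM, from 10, 21 and 27 counts. It lay below Shc2 in every library (log2 Shc3/Shc2 -4.31 ± 0.35), which is 19.8-fold, and the log2 ratio was -6.15 without any length correction and -5.08 with the length of the longest coding transcript. Eid1 lies within the Shc4 locus on the other strand and shares 527 exon bases with it, 6.38% of the Shc4 model. Eid1 had 54.6, 81.8 and 125 TPM.

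The Dok adapters, of which DOK4, DOK5 and DOK6 are known to bind RET and DOK1 is best known as a brake on Ras in blood cells, gave the largest difference among the paralog pairs, that between Dok6 and Dok4. Dok4 (chromosome 8, 94863828 to 94876312, minus strand, GRCm38.p2) had 309, 347 and 153 TPM, so that D was well below A and B. Dok5 (chromosome 2, 170731807 to 170879769, plus strand) was steady at 143, 147 and 149 TPM. Dok4 made up 66.6%, 68.8% and 49.2% of the Dok sum and Dok5 36.0% ± 10.3 (SD, n = 3). Dok1 had 10.2, 9.72 and 8.33 TPM. Dok6 had 1.26, 0.415 and 0.826 TPM from 49, 17 and 55 counts, 337-fold below Dok4 (log2 Dok6/Dok4 -8.40 ± 1.15) and 194-fold below Dok5 (log2 Dok6/Dok5 -7.60 ± 0.82). These folds depend on the length used and on library B: log2 Dok6/Dok4 was -7.41 as CPM (counts scaled to the library total, without length), -9.38 with the longest coding transcript and -7.74 without B, and log2 Dok6/Dok5 was -6.06 as CPM and -8.57 with the longest coding transcript. Dok5 stood below Dok4 in A and B by log2 -1.11 and -1.24, while in D they were nearly level (-0.04). Of the Dok4 model, 415 bases (15.9%) are shared with exons of Polr2c on the other strand, a gene at 22.7 ± 3.18 TPM.

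Grb2, the adapter that carries the Ras exchange factor SOS to the receptor, was even across libraries with 89.6, 109 and 96.4 TPM. Its partners Gab2 (19.2, 16.1 and 9.84 TPM) and Gab1 (19.4, 18.1 and 9.48 TPM), docking proteins that bring in PI3K and SHP2, differed little from each other, with log2 Gab2/Gab1 of -0.04 ± 0.12. The docking proteins of the FRS family, best known from FGF and neurotrophin receptors, were scarcer: Frs3 had 3.79, 4.66 and 3.04 TPM and Frs2 6.66, 4.49 and 1.94 TPM. Their order differed between libraries (log2 Frs3/Frs2 -0.81 in A, 0.05 in B and 0.64 in D). Of the Src family kinases, which also bind activated RET, Fyn (12.0, 14.6 and 20.8 TPM) exceeded Src (6.16, 7.78 and 4.31 TPM) in all 3 libraries (log2 Fyn/Src 1.38 ± 0.77). Plcg1, the phospholipase that opens the calcium and protein kinase C branch, had 16.2, 16.2 and 12.8 TPM, and Ptpn11, which encodes the phosphatase SHP2, 3.63, 6.57 and 3.49 TPM.

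Going from adapters to the cascade itself, transcripts of the exchange factors were few and those of the Ras GTPases many. Sos2 (7.20, 5.31 and 6.13 TPM) lay below Sos1 (9.86, 8.17 and 8.77 TPM) in all libraries, with little spread (log2 Sos2/Sos1 -0.53 ± 0.08). That order rests on the gene length used, since with the length of the longest coding transcript the mean log2 ratio was -0.00826. The Ras GTPases summed to 653, 583 and 445 TPM, of which Nras took 96.1%, 94.4% and 92.8%. Nras (chromosome 3, 103058339 to 103067914, plus strand) was the highest of all 55 genes at 628, 550.2 and 413 TPM and stood above 97.6% of the coding genes of at least 1 TPM. Hras had 20.5, 26.7 and 26.4 TPM, so Nras was 21.5-fold higher (log2 Nras/Hras 4.42 ± 0.49). Rras, a Ras relative linked to integrins and vessels, had 4.90, 5.81 and 5.53 TPM. Nf1, whose product neurofibromin switches Ras off, was among the low members at 2.13, 2.49 and 2.71 TPM.

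Among the kinases, Araf and Mapk3 stood far above the other listed genes of their level, and the MAP2 and RSK kinases were closer together. Braf, the most active Raf kinase and a main Raf of neurons, had 14.0, 7.11 and 4.69 TPM, against 151, 130.4 and 123 TPM for Araf (chromosome X, 20797814 to 20860519, plus strand). Araf was therefore 17.3-fold higher (log2 Braf/Araf -4.11 ± 0.64), and the log2 ratio was -3.03 as CPM and -4.80 with the longest coding transcript. Araf shares 9 exon bases with Syn1 on the other strand. Braf shares 146 exon bases (1.05%) with Ndufb2 on the other strand, a gene at 19.9 ± 4.75 TPM. Map2k1 and Map2k2 encode MEK1 and MEK2, which activate the ERK kinases. Map2k2 had 11.7, 15.4 and 18.0 TPM and Map2k1 35.0, 40.8 and 16.7 TPM, so Map2k2 was lower in A and B (log2 Map2k2/Map2k1 -1.58 and -1.40) and level in D (0.11). Map2k5, the MEK of the separate ERK5 branch, had 17.0, 19.7 and 13.1 TPM. Mapk3, which encodes ERK1, was the second of the 55 genes at 423, 538 and 458 TPM (chromosome 7, 126759601 to 126765819, plus strand). Mapk7, which encodes ERK5, a kinase of survival signals that travel back from axon ends, had 48.2, 52.7 and 17.2 TPM, 13.3-fold below Mapk3 (log2 Mapk7/Mapk3 -3.74 ± 0.87, and -2.72 as CPM). Of the RSK kinases, substrates of ERK, Rps6ka3 (11.0, 8.24 and 9.15 TPM) and Rps6ka2 (9.88, 10.4 and 7.09 TPM) changed order between libraries and Rps6ka1 was lowest at 2.79, 2.33 and 2.83 TPM. Rps6ka2 reads may not be unique, since 3110 bases of its longest coding transcript match a transcript of Sod2 at 98.3% identity, and Sod2 had 2707, 3012 and 3894 counts against 405, 447 and 496 for Rps6ka2.

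**Figure D2:**
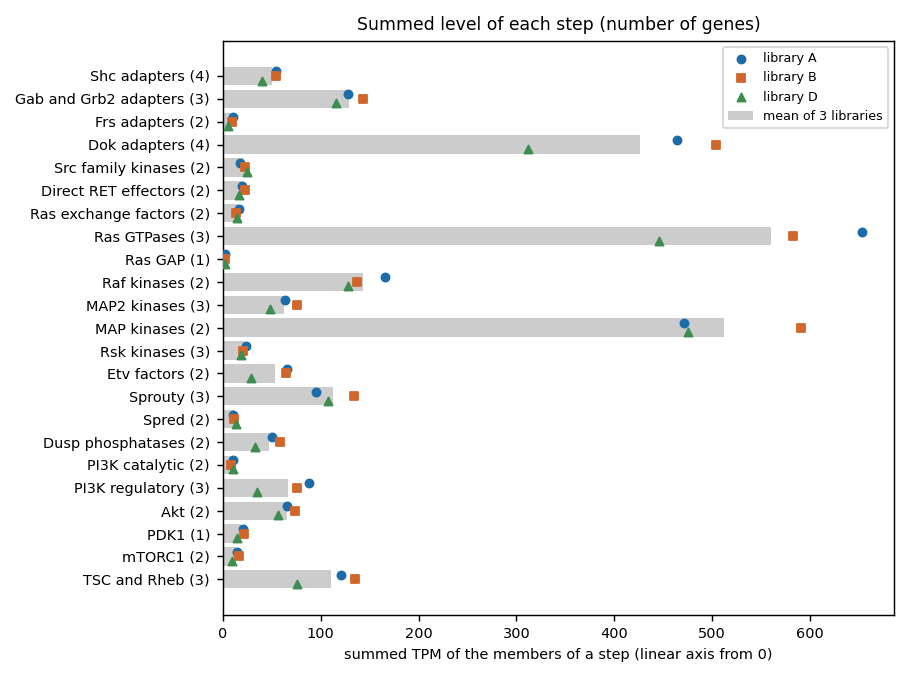
Summed TPM (linear axis from 0) of the genes of each step, with the number of genes in brackets, bars for the mean of 3 libraries and points for each library. The Ras GTPases (445 to 653 TPM), the MAP kinases (471 to 590.2 TPM) and the Dok adapters (311 to 504 TPM) stand above all other steps shown.

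Along the cascade the summed transcript levels thus ran unevenly, with 15.1 ± 1.81 TPM for the exchange factors, 560.5 ± 106 TPM for the Ras genes listed, 144 ± 19.7 TPM for the Raf genes, 62.5 ± 14.1 TPM for the MAP2 kinases and 512 ± 67.9 TPM for the MAP kinases (SD, n = 3). Other Ras, Raf and MAP kinase genes were not analysed here, so these are sums over the listed genes and not over whole families.

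Targets and brakes of ERK signalling ranged from Spry1, the lowest of the 55 genes, to Spry2, the eighth highest. Etv5 (33.4, 42.7 and 14.8 TPM) and Etv4 (31.8, 22.4 and 13.7 TPM) encode ETS transcription factors that GDNF-RET signalling is known to induce in kidney and motor neurons. Etv5 was above Etv4 in each library, by log2 0.07, 0.93 and 0.10, a mean within 1 SD of 0. Dusp6, a phosphatase that inactivates ERK and is itself a common target of it, had 46.7, 54.6 and 30.6 TPM. It was 13.5-fold above Dusp4 (3.75, 3.71 and 2.26 TPM), with one of the most even ratios (log2 Dusp6/Dusp4 3.76 ± 0.12). Of the Sprouty genes, feedback inhibitors of receptor signalling, Spry4 had 31.9, 49.3 and 25.9 TPM and Spry2 63.1, 84.1 and 81.2 TPM (log2 Spry4/Spry2 -1.14 ± 0.46). That order rests on gene length: as CPM the log2 ratio was 0.00241. Spry1, the Sprouty gene known to hold back RET in the kidney, had 0.318, 0.389 and 0.293 TPM, from 7, 9 and 11 counts. With fewer than 10 counts in A and B its ratios were not tested, and Spry2 stood above it by log2 7.63, 7.76 and 8.12. The Spred genes, relatives of Sprouty whose products bring neurofibromin to Ras, were low and close to each other: Spred2 had 3.74, 4.73 and 6.76 TPM and Spred1 7.19, 6.96 and 6.93 TPM.

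The contrast between Spry2 and Spry1 and that between Braf and Araf were set beside the DNA upstream of their starts. The 250 bases before each start are shown, from RefSeq's GRCm38.p6 table, in which 44 of the 55 genes had an entry. For the Sprouty pair the capitals mark CG dinucleotides, which are dense in promoters of the CpG island kind. Spry2 (chr14:105896820-105897069, minus strand) and Spry1 (chr3:37639697-37639946, plus strand) held 23 each, more than 86.7% of all 32851 upstream windows in the table. The median was 19 over the 61 windows of the listed genes and 6 over all windows. The most abundant and the scarcest Sprouty gene thus did not differ in this count.
Spry2: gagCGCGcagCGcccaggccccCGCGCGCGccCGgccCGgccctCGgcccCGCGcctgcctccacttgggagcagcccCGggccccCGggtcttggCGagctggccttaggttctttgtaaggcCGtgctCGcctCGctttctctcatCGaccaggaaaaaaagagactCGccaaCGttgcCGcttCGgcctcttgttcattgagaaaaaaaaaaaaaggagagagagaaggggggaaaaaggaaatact
Spry1: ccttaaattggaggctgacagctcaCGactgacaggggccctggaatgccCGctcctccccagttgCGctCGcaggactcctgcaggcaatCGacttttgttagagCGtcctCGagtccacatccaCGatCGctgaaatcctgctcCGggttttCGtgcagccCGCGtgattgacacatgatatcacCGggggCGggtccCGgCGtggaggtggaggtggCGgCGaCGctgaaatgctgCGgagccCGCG
For the Raf pair the capitals mark TGACGTCA, the cyclic AMP response element, which reads the same on both strands. It was found at 2 places upstream of Braf (chr6:39725464-39725713, minus strand) and at 0 upstream of Araf (chrX:20848293-20848542, plus strand). RefSeq's start of Araf lies inside the gene model used for the counts, which begins at 20797814, and the bases before that position were not searched. Of all 32851 windows, 1.55% held it, and of the 61 windows of the listed genes 2 did, those of Braf and Ptpn11. A match describes the letters of the window and does not show that a factor binds there.
Braf: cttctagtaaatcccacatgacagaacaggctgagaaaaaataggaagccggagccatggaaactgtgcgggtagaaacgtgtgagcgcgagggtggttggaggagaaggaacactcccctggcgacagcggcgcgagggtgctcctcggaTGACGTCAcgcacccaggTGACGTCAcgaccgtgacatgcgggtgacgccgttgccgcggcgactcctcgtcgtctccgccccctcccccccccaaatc
Araf: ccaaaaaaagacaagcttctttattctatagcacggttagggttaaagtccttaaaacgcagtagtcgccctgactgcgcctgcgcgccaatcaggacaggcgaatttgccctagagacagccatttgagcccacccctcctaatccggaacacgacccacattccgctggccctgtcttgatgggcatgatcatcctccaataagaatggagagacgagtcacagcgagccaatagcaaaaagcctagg

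In the PI3K-Akt branch, Pik3cb, a catalytic subunit, had 1.14, 1.36 and 0.913 TPM, against 8.90, 6.80 and 9.24 TPM for the catalytic subunit Pik3ca. The difference was 7.34-fold (log2 Pik3cb/Pik3ca -2.88 ± 0.52). The 3 regulatory subunit genes, which hold the catalytic subunits at receptors and adapters, were higher and had no fixed order. Pik3r3 had 32.7, 15.0 and 8.30 TPM, Pik3r2 31.2, 41.1 and 9.31 TPM, and Pik3r1 24.6, 19.8 and 16.9 TPM. Pik3r3 was the highest of them in A, Pik3r2 in B and Pik3r1 in D, and every ratio among them lay within 1 SD of 0. As CPM, Pik3r2 was below Pik3r1 (log2 Pik3r2/Pik3r1 -1.09, against 0.18 as TPM). The regulatory genes summed to 66.3 ± 28.3 TPM, against 9.45 ± 1.12 TPM for the catalytic genes listed.

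Akt2, known for its role in the insulin response of muscle and fat, had 8.42, 8.38 and 3.74 TPM, and Akt1, the widely expressed survival kinase, 56.9, 65.9 and 52.3 TPM. Akt1 was 9.06-fold higher (log2 Akt2/Akt1 -3.18 ± 0.55, and -2.38 as CPM). Pdpk1, whose product phosphorylates Akt, had 20.95, 21.5 and 14.5 TPM. Further down, Rheb, the GTPase that activates mTORC1, was the seventh highest of the 55 genes at 87.4, 104 and 62.6 TPM. Of the complex that turns Rheb off, Tsc2, the part with GAP activity, had 29.2, 28.6 and 10.4 TPM, and Tsc1, its stabilising partner, 3.89, 2.28 and 2.37 TPM. Mtor (9.71, 10.9 and 6.08 TPM) and Rptor (5.26, 6.17 and 3.86 TPM), the kinase and the scaffold of mTORC1, kept nearly the same proportion in each library, with Rptor at 35.1%, 36.1% and 38.8% of their sum. Tsc2 shares 578 exon bases (9.60%) with Pkd1 on the other strand, a gene at 2.04 ± 1.18 TPM. In all, 10 of the 55 genes share exon bases with another gene, at most 16.3% of the model (Frs3 with its antisense gene Frs3os), and without a stated strand setting their reads cannot be told apart. Stretches of at least 95% identity to another gene's transcript were found for 12 genes. Frs2 matched a transcript of Galnt1 over 427 bases, and Galnt1 had 313, 276 and 383 counts, against 287, 203 and 143 for Frs2. Etv5 and Pik3r3 matched Gm4798 over 1700 bases and Gm49337 over 1296 bases. Neither copy was among the genes measured. Copies with few counts were those of Akt2, Grb2 and Pik3cb. The pseudogene Akt2-ps had 2, 5 and 3 counts, and the Grb2 copy Gm12791 had 3, 3 and 7. Of the Pik3cb copies, Gm12978 had 0 counts in each library and Gm12992 had 4, 4 and 7. Pik3cb itself had 62, 78 and 85 counts.

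Within libraries, 38 pairs of paralogs were compared and 36 could be tested, with 10 or more counts for each gene in all libraries. The order was the same in all 3 libraries for 27 pairs, each at p = 0.25 by exact sign-flip permutation (two-sided), the smallest that 3 libraries allow, and an adjusted p of 0.333 over the 36 pairs (Benjamini-Hochberg). No pair could therefore pass 0.05, and differences are read against the spread between libraries. The mean difference was over 2-fold for 22 pairs and over 8-fold for 13, and for 9 pairs it was within 1 SD of 0. The order turned between libraries for 9 pairs: Shc2/Shc1, Gab2/Gab1, Frs3/Frs2, Map2k2/Map2k1, Map2k5/Map2k2, Rps6ka3/Rps6ka2 and the 3 pairs of Pik3r1, Pik3r2 and Pik3r3. Without length correction (CPM) the mean turned for 4 pairs, Gab2/Gab1, Map2k5/Map2k2, Spry4/Spry2 and Pik3r2/Pik3r1. With the length of the longest coding transcript, an alternative chosen after seeing the data, it turned for Frs3/Frs2 and Map2k5/Map2k2.

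**Figure D3:**
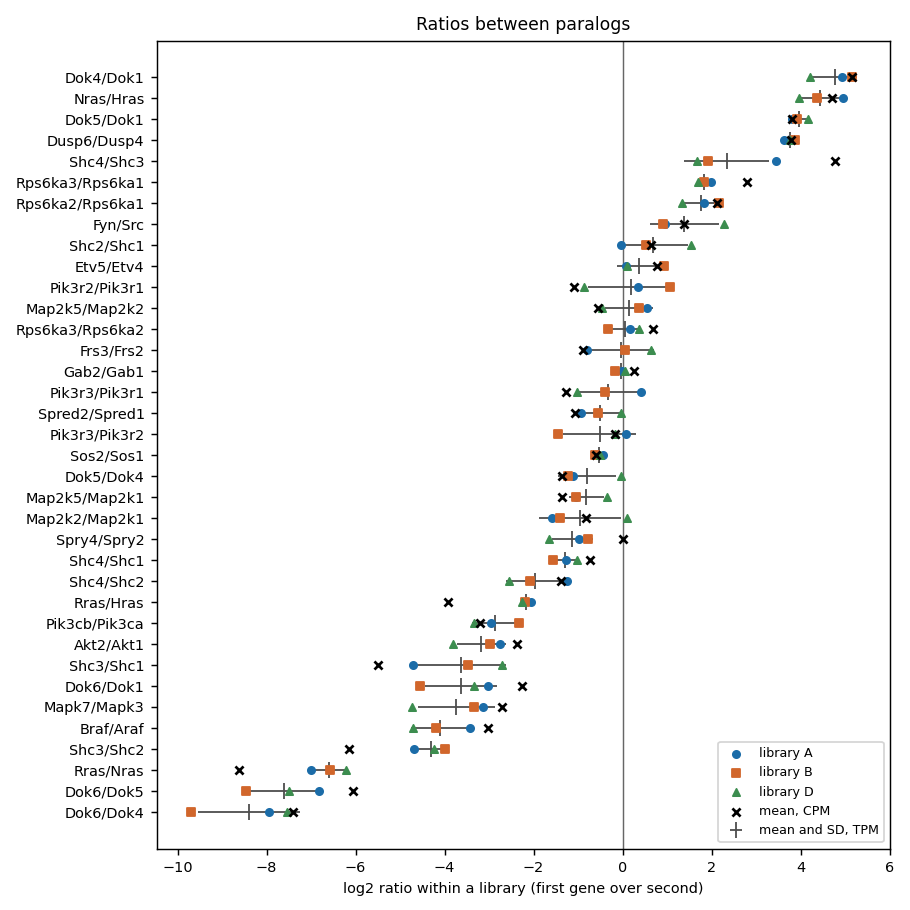
Log2 ratio of TPM within each library for 36 pairs of paralogs, first gene over second, with mean and SD (n = 3) and, as crosses, the mean log2 ratio of CPM. The pairs at the ends, such as Dok6/Dok4 (-8.40) and Nras/Hras (4.42), lie on 1 side of 0 in all 3 libraries, and those of Pik3r1, Pik3r2 and Pik3r3 lie on either side.

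The libraries were then compared for each gene. Of 13530 genes tested, 24 (0.177%) varied more between libraries than the trend for genes of similar abundance (goodness-of-fit test in edgeR, adjusted p under 0.05 by Benjamini-Hochberg), with a common biological coefficient of variation of 30.3%. The number was 7 without A and 2 without B. Among the listed genes 54 were tested, all but Spry1, and 0 passed in this edgeR test or under any of the 8 alternatives, with 2 at an unadjusted p under 0.05, against 827 of all 13530 genes. These were Pik3r2 (adjusted p = 0.56) and Pik3r3 (adjusted p = 0.64). The median fold range between libraries was log2 0.61 for the 54 genes and 0.68 for all genes tested. The 5 with the widest range of normalised CPM were Pik3r2 (3.50-fold), Pik3r3 (3.10-fold), Dok6 (2.81-fold), Frs2 (2.68-fold) and Mapk7 (2.43-fold).

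More genes stood apart in D than in A or B. A gene was counted as differing when its log2 CPM in a library was over 2-fold from the average of the remaining 2. In D, 6 of 54 genes were lower by this measure (11.1%, against 6.78% of all genes tested), namely Pik3r2 (log2 -1.61), Mapk7 (-1.21), Frs2 (-1.14), Tsc2 (-1.14), Pik3r3 (-1.08) and Etv5 (-1.02). The only gene higher in D was Spred2 at log2 1.01 (1 of 54, against 4.45% of all genes). In A, Pik3r3 (1.37) and Braf (1.10) were higher (2 of 54, against 3.18%) and 0 were lower (against 2.85%). In B, Pik3r2 (1.11) was higher (1 of 54, against 3.61%) and Dok6 (-1.36) lower (1 of 54, against 2.94%). No test was run on these counts.

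**Figure D4:**
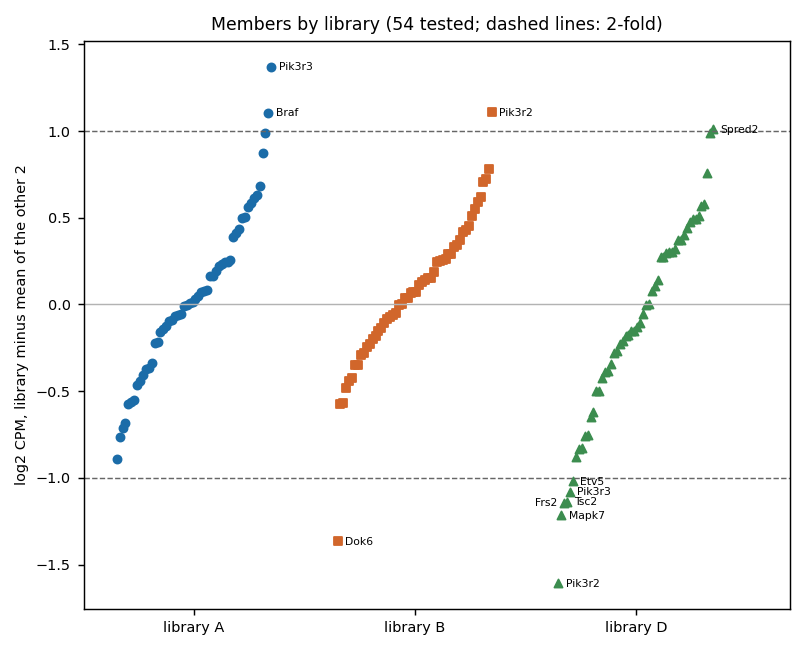
Log2 CPM of each of 54 genes in a library less the average over the remaining 2 libraries, sorted within library, with dashed lines at 2-fold and names for the genes past them. In D, 6 genes lie below the lower line, with Pik3r2 lowest at -1.61.

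By TPM, 36 of 55 genes (65.5%) were lowest in D, as were 61.6% of the coding genes of at least 1 TPM, so low TPM in D was general. Differences in D and in A also moved with gene length. Among coding genes, the median log2 difference of D was 0.29 for the shortest of 4 length classes (255 to 2497 bases). It was -0.22 for the third (3956 to 6010 bases), into which Pik3r2, Mapk7, Frs2, Pik3r3 and Etv5 fall. Spred2, which was over 2-fold higher in D, falls into the third class too. Tsc2 falls into the fourth (6012 to 41324 bases), where the median was -0.13. In A the median log2 difference was -0.24 in the shortest class and 0.03, 0.16 and 0.23 in the next ones. Braf and Pik3r3, over 2-fold higher in A, fall into the fourth and the third class. In B the medians stayed between -0.06 and 0.08. With the trend over gene length removed in the fit, 0 of the listed genes passed the edgeR test of variation between libraries. Which of the genes named for A, B and D stay over 2-fold apart without that trend was not determined. The part of the erythroid markers, which were also highest in D, was not tested.

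The 50 further genes of the pathway were also chosen with results of these data known. Their median was 5.57 ± 0.42 TPM, against 12.8 ± 3.10 TPM for the 55. Gsk3b, a kinase inhibited by Akt, led with 182, 243 and 235 TPM. Lamtor3 (117 ± 12.2 TPM) and Shoc2 (109.8 ± 56.0 TPM), scaffolds of the MAPK cascade, Eif4ebp1 (98.3 ± 16.9 TPM), a substrate of mTORC1, and Rit1 (93.9 ± 6.66 TPM), a Ras relative, followed. Etv1, related to Etv4 and Etv5, had 60.7, 42.6 and 44.6 TPM. The insulin receptor substrate Irs1 (0.311 ± 0.181 TPM) and the lipid phosphatases Inppl1 and Inpp5d (0.220 ± 0.246 and 0.135 ± 0.154 TPM) stayed below 1 TPM. Of the 45 of them that could be tested, 0 passed the edgeR test of variation between libraries, and 0 had an unadjusted p under 0.05, against the same 827 of 13530 genes.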

How the data were processed

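RNA was measured by sequencing in 3 libraries of EGFP-positive ganglion cells, made from 10 ng of total RNA each with the SMARTer Ultra Low Input kit and 12 PCR cycles, per the labels. The deposited tables give whole-number counts per gene, with CPM and RPKM that the authors derived from them. The submitters' processing notes name GRCm38.p2, Subread and featureCounts 1.4.5. Strand and multimapping settings are not given in the sources used, so genes with overlapping exons or near-identical copies are uncertain. CPM and RPKM recomputed from the counts differed from the deposited values by at most 4.7e-11 and 5.5e-12.

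TPM was computed per library from the deposited counts and gene lengths. Total counts ran from 20181558 to 29061086, and a count of 0 allows up to 0.149, 0.147 and 0.103 CPM in A, B and D (3 counts). Molecules carried no identifiers, so this limit covers counting error only. Paralogs were compared as log2 TPM ratios within a library, by exact sign-flip permutation (two-sided, 3 libraries) and Benjamini-Hochberg adjustment, where both genes had at least 10 counts in each library. Variation between libraries was tested on counts in edgeR 4.0.16 (TMM, filterByExpr, an intercept-only fit with trended dispersion and a goodness-of-fit test), which was tested on simulated data. Near copies were transcripts with at least 95% identity over 200 bases in BLAST 2.17.0 against GENCODE M21. R 4.3.3 and Python 3.11.15 were used.

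Values per library are given for the highest and lowest gene of each step, genes under 1 TPM and pairs whose order turned, and for others where short, along with the 5 genes of widest range. The genes and lists were chosen with earlier results of these data known. Alternatives were CPM, another prior count, other thresholds, other normalizations and filters, removal of the trend with gene length, each library left out and, chosen after seeing the data, the length of the longest coding transcript. Some items are not reported here.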

Additional observations from a re-analysis of the deposited data

How the results depend on the processing

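Of 216 recomputed pair ratios, 204 kept their direction and 12 reversed, in 7 pairs, and 29 pairs never reversed under the alternatives run. As CPM, the log2 ratio was -0.55 for Map2k5/Map2k2, 0.00241 for Spry4/Spry2, -1.09 for Pik3r2/Pik3r1 and 0.26 for Gab2/Gab1. With the longest coding transcript it was 0.68 for Frs3/Frs2 and -0.49 for Map2k5/Map2k2. With 1 library left out it ran from -0.38 to 0.35 for Frs3/Frs2, -0.0552 to 0.447 for Map2k5/Map2k2, -0.0901 to 0.26 for Rps6ka3/Rps6ka2, -0.26 to 0.70 for Pik3r2/Pik3r1, -0.71 to 0.0039 for Pik3r3/Pik3r1 and -0.0927 to 0.0206 for Gab2/Gab1. The number of genes varying between libraries was 24, and 55 with the length trend removed. It ran from 2 to 27 with 1 library left out (7 without A, 2 without B, 27 without D). The cause was not tested. No paired analysis was possible because there is 1 group of libraries and no other to pair it with; the paralog ratios were taken within each library. Genes with few counts, such as Spry1 and Dok6, are the least precise.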
